A study of Arabidopsis thaliana with 8 samples.

Results

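The genes nad4L and nad6 encode 2 small subunits of the membrane arm of respiratory complex I, and they were chosen by name from the deposited tables. They are 2 of the 33 mitochondrial genes with ribosome footprint values and 2 of the 9 complex I genes among them. All listed editing sites of both genes were included, which gave 21 of 434 sites (10 in nad4L and 11 in nad6). Ribosome profiling (Ribo-seq), in which the mRNA fragments covered by ribosomes are sequenced, was done on flowers of Arabidopsis thaliana in 3 genotypes with 2 libraries each, A and B, all in the Col-0 background. The genotypes were the wild type, the mutant mtl1 (a pentatricopeptide repeat, or PPR, protein mutant labelled with translation of nad7 mRNA) and the mutant mtsf1 (a PPR mutant labelled with stability of nad4 mRNA). RNA-seq of total RNA from flowers was available for 2 wild-type libraries, which gave the editing levels. Plants of every genotype were grown in a greenhouse under long days for 10 to 12 weeks, and the flowers were harvested at one time. The labels name no mutant alleles and do not tell whether A and B are separate plants. A p-value for footprints therefore stands for the spread between libraries, which may be technical. In the main fit that spread is pooled over all 33 genes and is not the gene's own. No RNA-seq of mtl1 or mtsf1 was analysed here, so a difference in footprints may lie in mRNA abundance, in translation or in both. The tissue label could not be checked against flower markers, because the Ribo-seq table holds mitochondrial genes alone.

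Complex I passes electrons from NADH to ubiquinone and pumps protons across the inner mitochondrial membrane. It has a matrix arm, which carries the electron path, and a membrane arm, which carries the proton channels. ND4L and ND6, the products of nad4L and nad6, are small hydrophobic proteins that lie near the joint of the arms, between the subunits at the base of the matrix arm and the antiporter-like subunits ND2, ND4 and ND5. In flowering plants these subunits are made from mitochondrial genes, and their mRNAs are changed after transcription by C-to-U editing, which PPR proteins guide to single bases. Editing is read in RNA-seq as T in place of the C of the genome.

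In RefSeq's TAIR10.1 assembly the nad4L coding sequence is 1 uninterrupted segment of 303 bases, at MT:361637-361939 on the plus strand, with 100 codons before the stop. RefSeq gives it a 5′ UTR of 318 bases (MT:361319-361636). The nearest coding segment before it is one of nad5, 1508 bases away, and atp4, an ATP synthase subunit gene on the same strand, starts 266 bases after it. The nad6 coding sequence has 618 bases without an intron, at MT:165838-166455 on the plus strand, with 205 codons before the stop and a 5′ UTR of 179 bases (MT:165659-165837). Its nearest coding neighbours lie 2480 bases upstream (nad2) and 15221 bases downstream (cob, on the other strand). RefSeq places the 3′ end of the nad6 transcript at position 166439, before the first in-frame stop codon. On that annotation 16 bases of the coding sequence lie beyond the mRNA, which holds 200 whole codons and 2 further bases. A tRNA-like t-element of 54 bases begins at position 166441. The labels and file headers name no genome build, and all positions here come from matching the deposited sequences to TAIR10.1.

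The stretches that carry the coding edits are shown because the editing values refer to single bases in them. They are the genomic DNA of TAIR10.1, with each listed editing site in capitals and all other bases in lower case. The nad4L stretch, MT:361667-361843, holds all 10 listed sites of that gene within 177 bases. The first nad6 stretch, MT:165853-166038, holds 8 sites, and the second, MT:166273-166310, holds 2.
nad4L stretch: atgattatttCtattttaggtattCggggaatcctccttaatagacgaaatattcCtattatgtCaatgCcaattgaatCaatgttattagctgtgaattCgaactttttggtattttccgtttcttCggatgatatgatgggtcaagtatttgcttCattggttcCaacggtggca
nad6 first stretch: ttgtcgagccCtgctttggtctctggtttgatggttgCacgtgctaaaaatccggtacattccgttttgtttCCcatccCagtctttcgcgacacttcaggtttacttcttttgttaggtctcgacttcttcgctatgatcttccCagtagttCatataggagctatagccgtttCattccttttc
nad6 second stretch: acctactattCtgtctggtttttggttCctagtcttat

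The deposited windows around these sites are written as edited RNA read as DNA, with every listed site already changed to T. All 21 windows matched the genome, and every other difference between a window and the genome was itself a listed site. 3 windows are given below, with the T of the edited base in capitals: the least edited nad4L site, the least edited nad6 site and the only listed site outside a coding sequence.
nad4L S44L: aatgttattagctgtgaattTgaact
nad6 P32L: ttccgttttgtttttcatccTagtct
nad6 5′ UTR: ataggaacaaccgcgctggtTgtaat

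Footprints on nad4L overlapped between the 3 genotypes. The normalized footprint count of nad4L was 2983 and 3018 in Col-0 A and B. The mtl1 libraries had 3032 and 2492 (A and B), and the mtsf1 libraries 3190 and 3006. Both wild-type values lay within the range of mtl1, Col-0 B lay within that of mtsf1 and Col-0 A just below it, and mtl1 B was the lowest of the 6 libraries. These are bulk samples, in which fewer cells of a type and less RNA per cell cannot be told apart. Both mutants are set against the same Col-0 libraries, so their contrasts with the wild type are not independent.

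Footprints on nad6 were lowest in mtl1. The normalized count of nad6 was 6297 and 5094 in Col-0 A and B. The mtl1 libraries had 3323 and 4965 (A and B), and the mtsf1 libraries 5432 and 6553. Both mtl1 libraries were below every library of the other genotypes, by a small margin in mtl1 B, while mtsf1 and Col-0 overlapped.

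These values stand beside a far larger change of 1 partner subunit in each mutant. Footprints on nad4, which encodes the antiporter-like subunit ND4, were 13818 and 11147 in Col-0 and 216 and 207 in mtsf1. Footprints on nad7, which encodes a matrix arm subunit at the ubiquinone site, were 8132 and 6785 in Col-0 and 460 and 394 in mtl1. The labels name these same genes, and each fell in the mutant labelled with it: nad4 58.4-fold in mtsf1 (95% interval 42.4 to 80.6, adjusted p = 3.28e-43 by limma) and nad7 17.4-fold in mtl1 (95% interval 12.6 to 24.0, adjusted p = 8.49e-31 by limma). These p-values rest on 1 variance shared by all genes. With a variance of its own for each gene, adjusted p was 0.000875 for nad4 and 0.0073 for nad7 by the per-gene linear model.

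**Figure D1:**
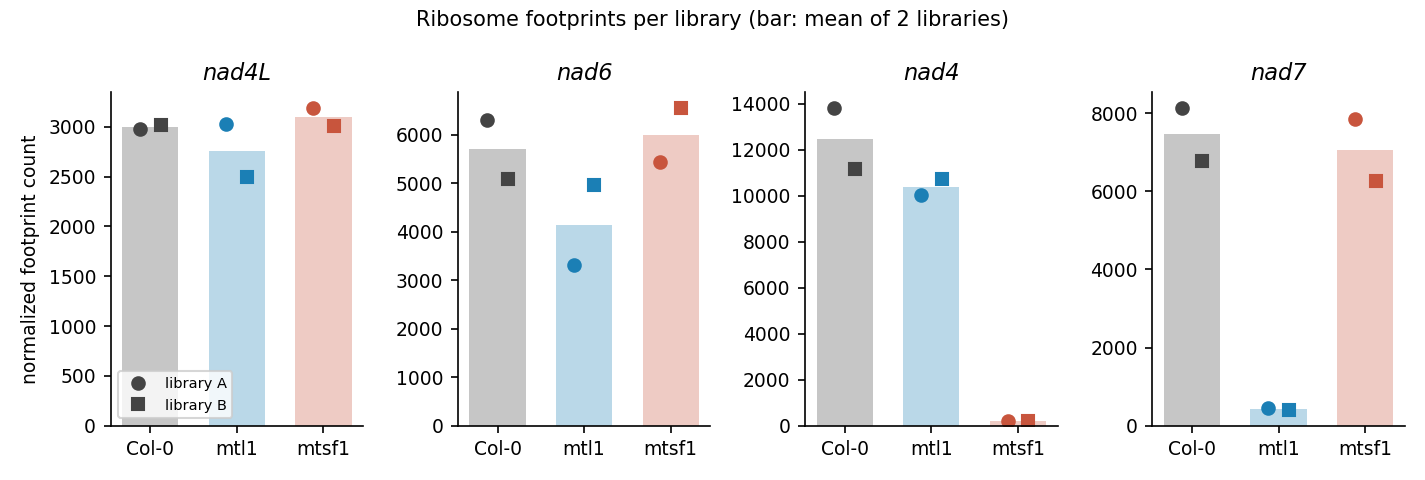
Normalized ribosome footprint count (vertical axis, linear from 0, with its own range per gene) of nad4L, nad6, nad4 and nad7 in each library of Col-0, mtl1 and mtsf1, where circles are libraries A, squares libraries B and bars the mean of both. nad4L lies between 2492 and 3190 in all 6 libraries, nad6 has its lowest value of 3323 in mtl1 A, and nad4 in mtsf1 and nad7 in mtl1 are near the axis.

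The differences were tested with limma on log2(normalized count + 1) over all 33 genes, with p-values adjusted over those genes and a threshold of 0.05. With 2 libraries per group an exact permutation test cannot go below p = 0.33. In mtl1 against Col-0, 11 of 33 genes passed the threshold (33.3%), 6 of them lower (18.2%) and 5 higher (15.2%). In mtsf1 against Col-0, 16 of 33 passed (48.5%), 7 lower (21.2%) and 9 higher (27.3%). Scaling the libraries to equal totals gave 21 genes there, 7 lower and 14 higher. Neither nad4L nor nad6 was among them in either mutant.

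The log2 fold change of nad4L was -0.13 in mtl1 (95% interval -0.59 to 0.34, adjusted p = 0.628 by limma) and 0.05 in mtsf1 (95% interval -0.42 to 0.51, adjusted p = 0.901 by limma). As ratios of the mutant to Col-0 these are 0.916 in mtl1 (interval 0.664 to 1.26) and 1.03 in mtsf1 (interval 0.748 to 1.42). Changes of the sizes inside these intervals cannot be told from no change here. Without mtl1 B the nad4L difference in mtl1 changed sign, to 0.02 (adjusted p = 0.959 by limma; range over the 15 alternatives 0.456 to 0.959).

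The log2 fold change of nad6 was -0.48 in mtl1 (95% interval -0.94 to -0.016), a ratio of 0.717 (interval 0.520 to 0.989). Its unadjusted p was 0.0428 and its adjusted p was 0.0943 by limma, so it did not pass the threshold. The interval and these p-values rest on the variance shared by all genes. By the per-gene linear model, with its own variance, unadjusted p was 0.196 and adjusted p 0.352. The unadjusted p was below 0.05 for 15 of the 33 genes (45.5%) in this contrast, and the libraries of the 2 genotypes did not overlap for 25 (75.8%), so neither property sets nad6 apart. The size of its difference ranked 15 among the 33 genes. The result turned on 1 library: without mtl1 A the log2 difference was -0.19 (adjusted p = 0.665 by limma), and without mtl1 B it was -0.77 (adjusted p = 0.0404 by limma; range over the 15 alternatives 0.0404 to 0.665).

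In mtsf1 the log2 fold change of nad6 was 0.08 (95% interval -0.39 to 0.54, adjusted p = 0.824 by limma), a ratio of 1.05 (interval 0.764 to 1.45). The direction turned when Col-0 B or mtsf1 B was left out, to -0.078 and -0.060. With equal totals the log2 fold changes in mtsf1 were 0.41 for nad6 (adjusted p = 0.096 by limma) and 0.38 for nad4L (adjusted p = 0.122 by limma), with the median of all 33 genes at 0.36. Over the 15 alternatives the adjusted p ranged from 0.096 to 0.903 for nad6 and from 0.122 to 0.993 for nad4L. In that contrast 19 of 33 genes had an unadjusted p below 0.05 (57.6%), nad6 and nad4L not among them, and 25 did not overlap (75.8%), while both of these genes did.

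The mutants were also compared with each other, as a test of whether the response of a gene differed between them. For nad4L the log2 difference between mtl1 and mtsf1 was -0.17 (95% interval -0.64 to 0.29, adjusted p = 0.547 by limma), and the libraries overlapped. For nad6 it was -0.55 (95% interval -1.02 to -0.09, unadjusted p = 0.0196, adjusted p = 0.0639 by limma), a ratio of 0.681 (interval 0.494 to 0.939), with both mtl1 libraries below both mtsf1 libraries. By the per-gene linear model, with its own variance, the adjusted p of nad6 was 0.320. In this contrast 8 of 33 genes passed the threshold (24.2%), 11 had an unadjusted p below 0.05 (33.3%) and 22 did not overlap (66.7%). The nad6 difference did not pass in the fit as designed, and passed when the libraries were scaled to equal totals (-0.80, adjusted p = 0.00164 by limma) and when mtl1 B was left out (-0.84, adjusted p = 0.0197 by limma). Without mtl1 A it was -0.27 (adjusted p = 0.597 by limma), with a range over the 15 alternatives of 0.00164 to 0.597. Equal totals moved the median log2 difference of all 33 genes in this contrast from -0.10 to -0.34, so relative to that median the nad6 difference hardly moved.

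The other complex I genes show how the members sit within the complex. Of the 7 membrane arm genes none passed the threshold in mtl1, where the matrix arm genes nad7 and nad9 both fell. The median log2 fold change of the 7 membrane arm genes in mtl1 was -0.13. nad4L is the middle gene both of these 7 and of all 33 genes. Both medians are therefore its own value (-0.13), and their likeness says nothing about the membrane arm. In mtsf1, 2 of the 7 membrane arm genes fell, nad4 and nad2, and none rose. The membrane arm median there was -0.24 against 0.03 over all genes. Footprints on nad2, which encodes another antiporter-like subunit, were 9486 and 9988 in Col-0 and 3531 and 2833 in mtsf1, a log2 fold change of -1.62 (adjusted p = 4.57e-09 by limma). Footprints on nad9, a matrix arm subunit gene, were 8180 and 8716 in the wild type, against 3978 and 3597 in mtl1 and 4923 and 3746 in mtsf1. Its log2 fold changes were -1.16 in mtl1 (adjusted p = 3.27e-05 by limma) and -0.98 in mtsf1 (adjusted p = 0.000178 by limma). With a variance of its own for each gene, the nad9 calls were lost (adjusted p = 0.0779 and 0.0648 from the per-gene linear model across all genes, beside limma), while nad4, nad7 and nad2 still passed. nad1, nad3 and nad5 passed the threshold in neither mutant, like nad4L and nad6.

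**Figure D2:**
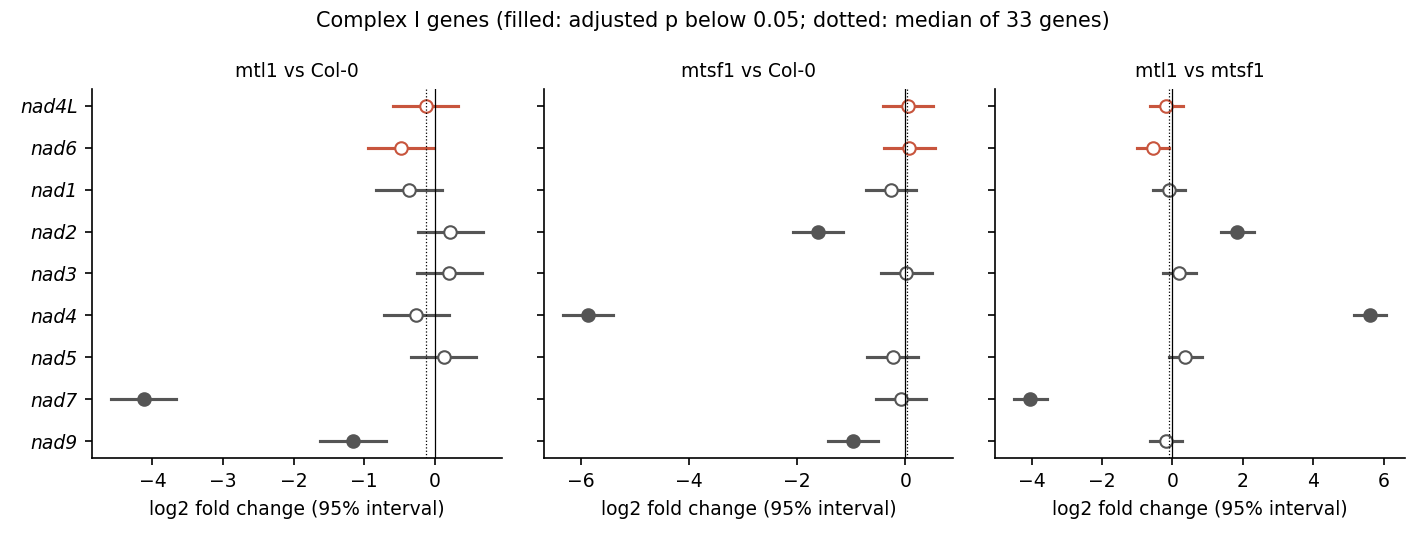
Log2 fold change of normalized footprint counts (horizontal axis, with 95% intervals as bars) for the 9 complex I genes in mtl1 against Col-0, mtsf1 against Col-0 and mtl1 against mtsf1, from limma, with nad4L and nad6 in red, filled points for adjusted p below 0.05 and a dotted line at the median of 33 genes. Both red genes are open in every panel, and the nad6 interval in mtl1 runs from -0.94 to -0.016.

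The spread between libraries A and B differed for the members. For nad6 the gap between A and B on the log2 scale was 0.31 in the wild type, 0.58 in mtl1 and 0.27 in mtsf1. In mtl1 only 2 of the other genes had a larger gap, against a median gap of 0.20 over the table. For nad4L the gap was 0.02 in the wild type, 0.28 in mtl1 and 0.09 in mtsf1, and 31 genes had a larger one in Col-0. nad4L was thus among the most repeatable genes in the wild type, and nad6 in mtl1 among the least.

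The level of nad6 relative to nad4L within a library does not depend on the scaling between libraries. The ratio of the normalized counts was 2.11 and 1.69 in the Col-0 libraries. It was 1.1 and 1.99 in those of mtl1 and 1.70 and 2.18 in those of mtsf1. The low value came from mtl1 A alone. The other libraries, mtl1 B included, lay between 1.69 and 2.18.

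Counts were divided by coding length to compare levels between genes, over the 31 genes that could be ranked. In normalized count per kilobase, nad4L stood at 9903 ± 82 (SD, n = 2) in Col-0, which was rank 11 of 31 and rank 3 of the 9 complex I genes. nad6 stood at 9216 ± 1376 (SD, n = 2), rank 12 and rank 4. In the complex I order nad9 was highest (14744 ± 661), followed by nad3 (12311 ± 2135), nad4L, nad6 and nad1 (9033 ± 1170). nad4L, nad6 and nad1 differed from each other by less than the spread of nad6 and nad1, and the Col-0 libraries of nad3, at 10801 or more, lay above those of nad4L. By the uncorrected count, nad4L was the lowest of the 9 complex I genes and nad6 the 7th, so the length correction decides where both stand.

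In mtl1 the per-kilobase count of nad4L was 10007 and 8224 (rank 2 of the complex I genes) and that of nad6 was 5377 and 8034 (rank 7). In mtsf1 it was 10528 and 9921 for nad4L (rank 2) and 8790 and 10604 for nad6 (rank 3). The rank of nad6 in mtl1 rests on library A, where it was rank 8. In mtl1 B it was rank 3, directly after nad4L at rank 2. Ranks also depend on the other genes: nad9, rank 1 in Col-0, was rank 8 in mtl1 and rank 4 in mtsf1. Genes below nad9 in Col-0 could thus move up without a change of their own.

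**Figure D3:**
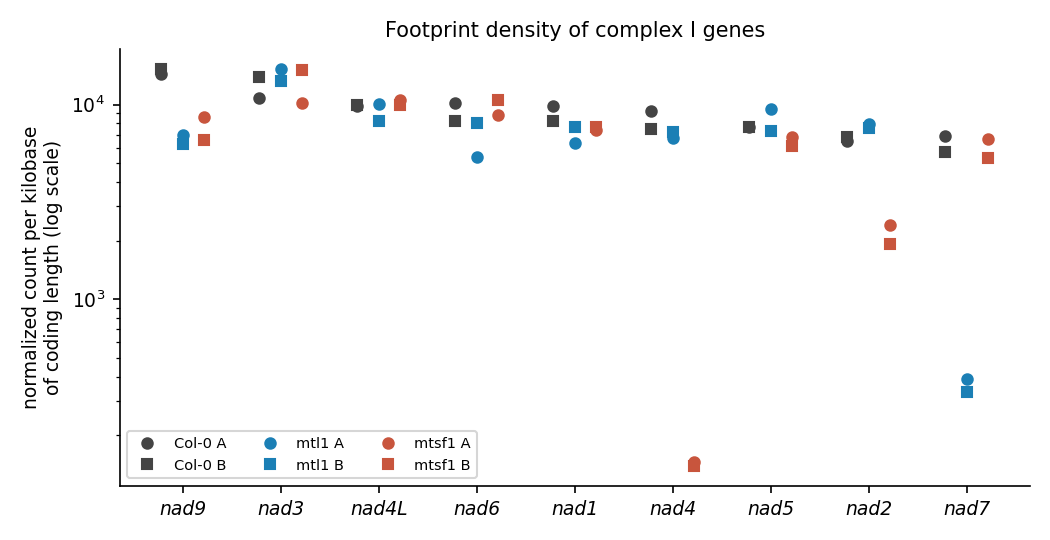
Normalized footprint count per kilobase of coding length (vertical axis, log scale) for the 9 complex I genes ordered by their Col-0 mean, with a point for each library, colours for genotypes, circles for A and squares for B. nad4L and nad6 lie among the other complex I genes at 9903 and 9216 on average in Col-0, while nad4 in mtsf1 and nad7 in mtl1 lie far below.

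As a share of the footprints on complex I genes, leaving out nad4 and nad7, nad4L took 5.35% and 5.47% in the wild type, 5.76% and 5.07% in mtl1 and 7.67% and 7.27% in mtsf1. The corresponding shares of nad6 were 11.3% and 9.24% in the wild type, 6.31% and 10.1% in mtl1 and 13.1% and 15.8% in mtsf1. Both shares were higher in both mtsf1 libraries than in any other library, while the counts of nad4L and nad6 overlapped those of Col-0. The same 7 genes include nad2 and nad9, which fell in mtsf1. The shares were not tested.

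Over the 6 libraries, the genes most like nad4L by Pearson correlation of log2(normalized count + 1) were rpl16 (r = 0.722), nad7 (r = 0.655) and matR (r = 0.555). For nad6 they were ccmFN2 (r = 0.813), nad7 (r = 0.740) and nad1 (r = 0.739). Between nad4L and nad6 r was 0.047, and nad5 was least like nad6 (r = -0.864). These values describe 6 points that share libraries and scaling, and nad7 is itself the gene that fell most in mtl1. Footprints on atp4, the coding neighbour after nad4L, were 8521 and 9728 in the wild type, 7996 and 8275 in mtl1 and 7698 and 5725 in mtsf1. Its log2 fold changes of -0.16 in mtl1 (adjusted p = 0.556 by limma) and -0.46 in mtsf1 (adjusted p = 0.0892 by limma) did not pass the threshold either.

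Part of the nad6 sequence occurs elsewhere in the genome, which bears on what its counts can hold. Of the 589 words of 30 bases in its coding sequence, 154 (26.1%) occur again in the mitochondrial genome, and RefSeq marks 2 repeats that overlap its start and middle (MT:165832-165932 and MT:165948-166134). All 589 (100%) also occur on nuclear chromosome 2 of the assembly. For nad4L, 0 of 274 words occur elsewhere in the mitochondrial genome and 15 (5.47%) occur on nuclear chromosome 5. No label or header tells how reads that match several places were handled, so nad6 counts are the less certain, and the part of such reads in the nad6 values was not tested.

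Editing of both mRNAs in wild-type flowers was close to complete. A site's editing level is its T reads over T plus C reads, and a site was kept when each RNA-seq library had 20 or more of them, which left 7 of 10 in nad4L and 8 of 11 in nad6. The mean level over kept sites was 98.6% and 99.5% in libraries A and B for nad4L (99.04% ± 0.661, SD, n = 2) and 99.01% and 99.6% for nad6 (99.3% ± 0.445, SD, n = 2). Over the 211 kept sites of all other genes the mean was 88.3%, and over the 139 of the other complex I genes 89.1%. The median site was at 99.5% in nad4L and 100% in nad6, against 99.9% in all other genes and 100% in the other complex I genes, so by the median site the members were not the more edited. The mean of the other genes includes 31 of 211 sites (14.7%) under 90%, while no kept site of nad4L or nad6 was under 90%. Among the 15 genes with 5 or more kept sites, nad6 ranked 4 and nad4L 6 by mean level. No test was made of these means, since there is 1 genotype. All kept nad6 sites except that at position 166300 lie in the repeats named above (MT:165832-165932 and MT:165948-166134). Reads from other copies may therefore enter the nad6 levels as well, and their part was not tested.

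All the listed coding sites change the protein. The 10 sites of nad4L lie in 10 codons and change S14F, R19W, P29L, S32L, P34S, S37L, S44L, S53L, S63L and P66L, numbered from the start codon with the amino acid of the genome first. 5 of them turn serine into leucine and 2 turn proline into leucine, which replaces small or polar residues with larger hydrophobic ones. The 10 coding sites of nad6 lie in 9 codons and change P9L, A18V, P30F, P32L, P54L, H57Y, S64L, S149F and P155S, where P30F needs both of the adjacent sites 165925 and 165926. 8 of 10 sites in nad4L and 7 of 10 in nad6 are at the middle base of the codon, and none is at the last base. The base before the site was T at 7 of 10 nad4L sites and 6 of 11 nad6 sites. nad4L had 3.3 listed sites per 100 coding bases, rank 2 of 29 genes after ccmB (4.19), in a ranking by all listed sites. By the same count nad6 had 1.78, rank 12 and level with atp9 (1.78). With its coding sites alone nad6 had 1.62 per 100 coding bases.

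RefSeq's own edit annotation holds all 10 nad4L sites and all 10 coding sites of nad6. It also marks 3 nad6 edits, at positions 165927, 165940 and 166199, which are not among the sites used here. Site 165765 of nad6, 73 bases before the start codon in the 5′ UTR, is listed in the deposited files and not in RefSeq's edits.

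The least edited kept site of nad4L was S44L at position 361767, with 208 T of 213 reads in library A and 490 of 505 in B. Its pooled level was 97.2% (95% Wilson interval 95.7% to 98.2%). S53L at 361794, 27 bases further on, had no C among 648 reads, and a count of 0 allows up to 0.463% unedited reads. The intervals of these neighbours did not overlap, although both levels are high. The least edited kept site of nad6 was P32L at 165932, with 31 T of 32 reads in A and 34 of 35 in B, pooled 97.0% (interval 89.8% to 99.2%).

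C reads were found at more nad4L sites than nad6 sites, with more reads in nad4L (2587 C or T reads over its sites against 855). At nad4L 29 C reads were found over 7 of the 10 sites, 20 of them at S44L, and at nad6 3 C reads over 2 of the 11. Of the kept sites, 1 of 7 in nad4L and 6 of 8 in nad6 had no C read in either library, against 100 of 211 (47.4%) in the other genes. The nad6 sites had fewer reads, so a count of 0 there is a weaker limit. It allows up to 1.99% unedited reads at P9L and P54L, 2.04% at H57Y, 3.12% at A18V, 4.17% at P155S and 6.12% at the first base of codon 30.

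**Figure D4:**
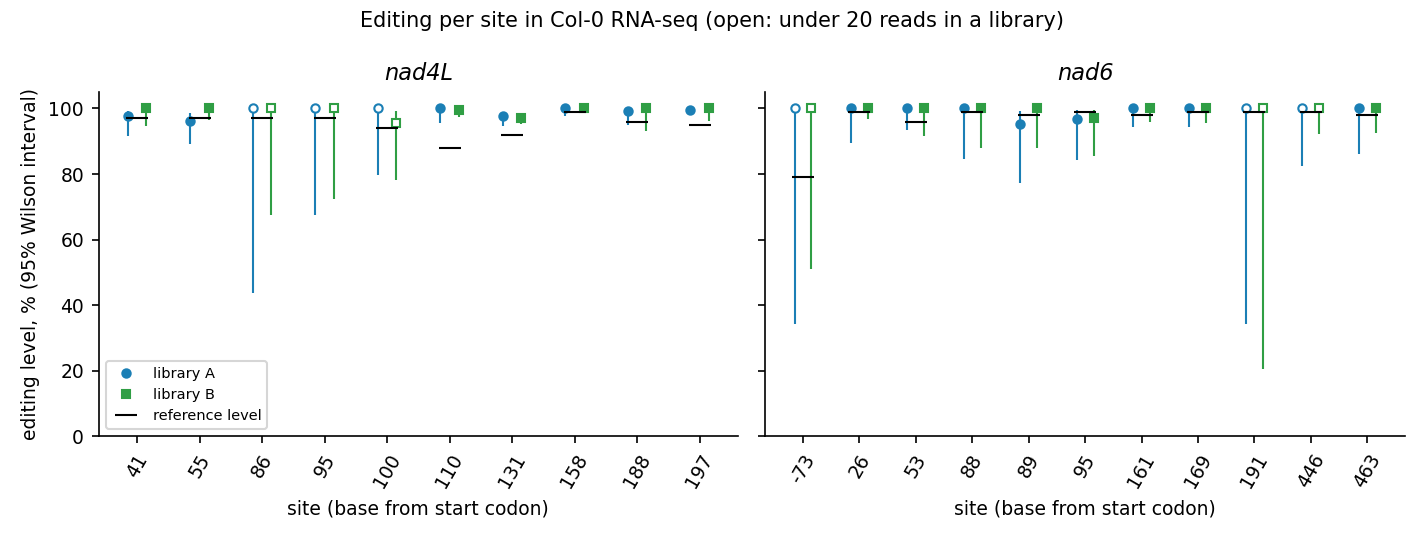
Editing level in percent (vertical axis) at each listed site of nad4L and nad6, ordered by base from the start codon (horizontal axis), in RNA-seq libraries A (circles) and B (squares) of Col-0 with 95% Wilson intervals, open symbols where a library had under 20 reads, and black dashes for the reference level in the deposited tables. The kept sites lie at 95% or above, and the reference lies visibly lower at the nad4L sites 110 and 131.

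The deposited tables give a reference level with a spread for each site, of an origin that no label or header states. Both libraries were above it at 6 of 7 kept nad4L sites and 6 of 8 kept nad6 sites. In the other genes this held at 103 of 135 kept sites (76.3%) with a reference under 100%, a share close to that of the members, and the remaining 76 have a reference of 100%, which no level can exceed. Taken without its spread, the reference lay below the pooled 95% interval at 5 of 7 kept nad4L sites and at 1 of 8 kept nad6 sites. It lay inside the interval at the others. This count was not made for the other genes, so it cannot be read as a trait of nad4L or of nad6. The nad6 intervals are also wider, with 855 C or T reads over its sites against 2587 in nad4L. The largest difference was at S37L of nad4L, position 361746, with a reference of 88 ± 12% and a pooled level of 99.7% (interval 98.1% to 99.9%, 298 T of 299 reads). At S44L the reference was 92 ± 6%, and at both S37L and S44L the pooled level lay within that spread of the reference. It lay above the spread at P66L (reference 95 ± 1%, pooled 99.7%) and S63L (96 ± 1%, pooled 99.4%). The same held at S14F (97 ± 1%, pooled 98.7%) and R19W (97 ± 1%, pooled 98.3%). At S53L (99 ± 1%, pooled 100%) it lay at the edge of the spread. The 5′ UTR site of nad6 had the lowest reference of all 21 sites, 79 ± 14%, and 6 T of 6 reads, which is too few to set its level.

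Libraries A and B were compared at each kept site by Fisher's exact test, two-sided, adjusted over 226 sites of all genes. 1 of 226 sites passed (0.442%), and 0 of the 15 sites of nad4L and nad6 did, also at an unadjusted p below 0.05. The lowest unadjusted p among the 15 was 0.0792, at R19W of nad4L, with 74 T of 77 reads in A and 101 of 101 in B.

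The reads behind a site varied along each mRNA. In nad4L they ran from 3 to 275 in library A and from 8 to 505 in B, with a median of 81.5 in both. In nad6 they ran from 2 to 64 in A (median 24) and from 1 to 118 in B (median 42). nad6 sites therefore carry wider intervals than nad4L sites. Intervals and limits cover counting error only, because reads without molecular identifiers are not independent molecules.

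The sites with few reads lay side by side in nad4L and apart in nad6. In nad4L, P29L, S32L and P34S, which lie within 15 bases of each other, had 3, 8 and 15 reads in A and 8, 10 and 22 in B. S37L, 10 bases further on, had 81 and 218. In nad6, S64L at 166028 had 2 and 1 reads, while H57Y, 22 bases before it, had 63 and 84. Both of these nad6 sites lie in the repeat at MT:165948-166134. The 8 nad4L sites with another listed site within 15 bases had a median of 79 reads in A and 59.5 in B, and the 2 without had 172 and 213 in A and 476 and 505 in B. For the coding sites of nad6 the medians were 32 and 35 with such a neighbour and 24 and 46 without, so nad6 had the order seen in nad4L in B and the opposite order in A. The part of site spacing in the read counts was not tested.

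**Figure D5:**
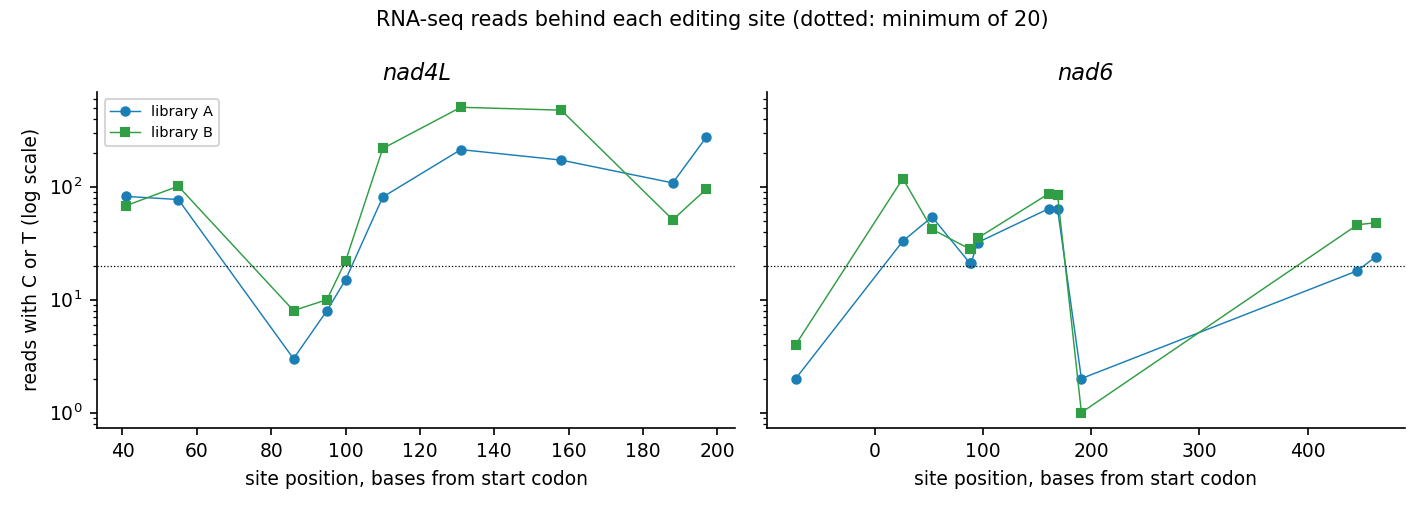
Reads with C or T at each listed editing site (vertical axis, log scale) against distance from the start codon in bases (horizontal axis) in Col-0 RNA-seq libraries A (circles) and B (squares), with lines that join the sites and a dotted line at the minimum of 20 reads. Both libraries dip together, to 3 and 8 reads at base 86 of nad4L and to 2 and 1 reads at base 191 of nad6.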

How the data were processed

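The deposited Ribo-seq table holds, per the file headers, a normalized read count per gene and library, which the authors rounded to whole numbers, so it was treated as a score and no count model was used. No label or header states how it was normalized. Its library totals ran from 216316 (mtsf1 B) to 290301 (Col-0 A) and are not depths, so Ribo-seq depth is unknown. Per the file headers, the authors' editing tables hold read counts per base and an observed editing fraction at each site, with a reference fraction. The submitters' processing notes name FastQC, cutadapt 1.9.1, Bowtie 1.1.2 and, for Ribo-seq, featureCounts 1.5.0-p2, with no settings. Annotation, strand handling and editing caller: not given in the sources used here.

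Scores were tested as log2(score + 1) with limma 3.58.1 (R 4.3.3), all 6 libraries in 1 fit with a mean per genotype, two-sided, with Benjamini-Hochberg adjustment over 33 genes. Fold changes are on that scale. limma gave all genes 1 shared variance with 99 degrees of freedom, so every log2 fold change has a standard error of 0.23. Editing levels were recomputed from C and T counts, with a minimum of 20 reads, and compared by Fisher's exact test (scipy 1.17.1). Both tests were tested on simulated data. The simulated data for limma gave every gene the same variance, so they cannot tell how well 1 shared variance suits the real genes. Groups and letters came from the sample titles, and 0 columns were left unmapped. Coding lengths and sequences came from RefSeq's TAIR10.1, and the 2 atp6 copies were left out of the ranking by length. Named genes were the members, nad4 and nad7, complex I genes past the threshold, neighbours in level and the 3 genes most like each member. Members, lists and tests were chosen with earlier results of these data known. Alternatives covered scaling, pseudocount, filter, variance, pairing, coverage minimum, share denominator and each left-out library.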

Additional observations from a re-analysis of the deposited data

Results flagged for a closer look

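5 sites were set aside for having under 20 reads in a library and held more than 3 T reads over both libraries. Sites edited almost completely meet this rule with few reads, so it marks unused data and no unusual editing. The limit given is the share of edited reads that 0 T reads would have allowed. In nad4L, P29L had 11 T reads over both libraries (limit 27.3% of its reads), S32L had 18 (limit 16.7%) and P34S had 36, with 1 C read (limit 8.11%). In nad6, the 5′ UTR site had 6 T reads (limit 50%) and S149F had 64 (limit 4.69%), and neither had a C read. S64L of nad6 had 3 T reads of 3, which is not above its limit. There was no group of 4 or more samples in which a single library could be tested as standing apart.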

How the results depend on the processing

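Of 90 alternative values for the fold changes of nad4L and nad6, 84 kept their direction and side of the threshold, and 3 passed it. Some of the 90 repeat the same estimate, because leaving out a library outside a contrast cannot change it. The count of 84 therefore overstates how far the results hold. Scaling to equal totals gave -0.80 for nad6 between the mutants (adjusted p = 0.00164 by limma) and 13 genes called there in place of 8 (3 higher, 10 lower). It moved the all-gene median from -0.13 to -0.033 in mtl1 and from 0.029 to 0.36 in mtsf1. A variance of its own for each gene called 1 gene in mtl1 and 4 in mtsf1, in place of 11 and 16. Leaving out single libraries, nad4L ranged from -0.27 to 0.015 in mtl1, from 0.0027 to 0.088 in mtsf1 and from -0.31 to -0.030 between the mutants. nad6 ranged from -0.77 to -0.19, from -0.078 to 0.23 (also -0.060 without mtsf1 B) and from -0.84 to -0.27, and the calls from 8 to 10, 15 to 17 and 6 to 10. The causes were not tested.

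The labels do not tell whether the letters A and B pair the samples. The correlation of the A minus B gaps was 0.066, 0.0039 and -0.14 between Col-0 and mtl1, Col-0 and mtsf1, and the mutants. Such values cannot decide it, because a shared batch with little effect on single genes would give the same. With the letter as a replicate block, nad6 in mtl1 stayed at -0.48 (adjusted p = 0.0973 by limma), no call of either gene changed, and 10, 16 and 8 genes were called. A crossed pairing of the mutants, chosen after seeing the data, called 11 genes.

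Over all 9 complex I genes, the nad4L share was 3.98% in the wild type, 4.47% in mtl1 and 6.35% in mtsf1, and the nad6 share was 7.54% in Col-0 and 12.3% in mtsf1. Over the membrane arm without nad4, nad4L took 6.38% in Col-0, 5.85% in mtl1 (below Col-0, where over 9 genes it was above) and 8.34% in mtsf1, and nad6 12.1% in Col-0. The mean editing level of nad6 was 100% at a coverage minimum of 50, where 2 sites remained, and at a minimum of 100 no nad6 site remained. With 2 libraries per genotype and unknown Ribo-seq depth, changes smaller than the intervals above could not be seen.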
